A study of Mus musculus with 12 samples.

Results

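TIGIT, CD226, CD96 and CRTAM are receptors of natural killer (NK) cells that bind nectins and nectin-like molecules, and LAG3, TIM-3 (gene Havcr2), PD-1 (gene Pdcd1) and CD160 are further receptors discussed as immune checkpoints. Their 8 genes, chosen by name with earlier results of these data known, were followed through the expression arrays. All 8 were among the 19938 genes that could be named from a probe set with a single gene symbol, and each had 1 probe set. The arrays were made from CD3-negative, NK1.1-positive cells of C57BL6 mice aged 7 to 10 weeks. Mice with the microRNA miR-142 (miR142 WT) and age- and sex-matched mice without it (miR142 KO) were used, and cells came from spleen or from bone marrow. Genotype and tissue gave 4 groups, each with 3 arrays. The labels name no further treatment, describe the replicates as biological, and do not say how the allele was made, in which cells of the mouse it acted, or whether mice were pooled. They also do not say whether spleen and bone marrow arrays came from the same mice. The sort gate also admits type 1 innate lymphoid cells (ILC1), which carry NK1.1 too.

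TIGIT, CD226 and CD96 share ligands, above all CD155 (gene Pvr), which many stressed and transformed cells display. CD226 activates killing and cytokine release on contact with such cells, TIGIT carries an inhibitory tail and competes for the ligand, and CD96 restrains interferon gamma production in mouse NK cells. The balance between the receptors is therefore read as a threshold for NK cell activation. CRTAM binds the adhesion molecule CADM1, LAG3 binds MHC class II molecules, PD-1 binds PD-L1 and PD-L2, TIM-3 has several reported ligands including galectin-9, and CD160 binds the herpesvirus entry mediator HVEM (gene Tnfrsf14). miR-142 is a microRNA of blood cells, and microRNAs lower the output of messenger RNAs that pair with their seed.

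The 2 mature arms of the deleted microRNA are shown because their absence defines the knockout groups. They are from RefSeq (GRCm38.p6, plus strand, chr11:87756867-87756887 and chr11:87756903-87756925), with the seed, bases 2 to 8 from the 5′ end, in capitals.
mmu-miR-142a-5p: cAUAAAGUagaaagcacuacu
mmu-miR-142a-3p: uGUAGUGUuuccuacuuuaugga
The seeds of the arms differ. Pairing of either seed with transcripts of the receptors was not analysed here. The Mir142 probe set had log2 signals of 6.77 to 8.25 in the 6 wild type arrays and 4.05 to 4.70 in the 6 knockout arrays, so the genotype labels matched the signal throughout.

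Values are log2 signals, on which a difference of 1 is a doubling, and no level of one probe set can be set against that of another. Medians of the arrays lay between 5.75 and 5.87. Genes with a mean log2 signal above 5.49 were tested, 11963 in all. Of the receptors 6 passed this filter, while Havcr2 and Pdcd1 lay below it. By their numbers in the labels, 7 arrays form one run and 5 another, the latter with no knockout bone marrow array, and the run was a term of the fit. It was called for none of the 11963 genes in limma, with 546 genes at an unadjusted p under 0.05, and its smallest unadjusted p among the 6 receptors was 0.0630, for Crtam. A gene is called "higher" or said to have risen where limma gave a Benjamini-Hochberg adjusted p under 0.05 over all tested genes. The genes listed as NK cell markers, Ncr1, Klrb1c, Klrk1, Klrd1, Eomes, Tbx21, Gzma and Prf1, were all measured. None of the 8 passed between genotypes in either tissue in limma, and over both tissues 1 rose, the granzyme gene Gzma, by 0.23 ± 0.068 (limma, adjusted p = 0.0338). The shares of NK cells and ILC1 in the arrays were not measured, and genes listed as ILC1 markers moved with genotype, as given below.

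The first question was which receptor genes differ when NK cells lack miR-142. In spleen 4 of the 6 tested receptors were higher in knockout (Tigit, Cd226, Lag3 and Cd160) and none was lower, where 5.48% of all tested genes were called higher, 3.63% lower and 9.11% in either direction. In bone marrow 2 of 6 were higher, Tigit and Cd160, and none lower, against 3.92% called higher, 4.73% lower and 8.65% in either direction. Over both tissues 5 of 6 were higher, Cd96 being the addition, against 8.81% called higher, 10.3% lower and 19.1% in either direction. The median difference of the 6 receptors was 0.63 in spleen and 0.41 in bone marrow, beside -0.013 and -0.012 over all tested genes. Since the receptors were chosen with earlier results of these data known, these shares and medians describe the 6 genes and test no enrichment. Leaving out 1 array at a time moved the spleen count between 1 and 4, with 1 left without wild type spleen 3, and the bone marrow count between 0 and 2, with 0 left without wild type bone marrow 1.

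**Figure D1:**
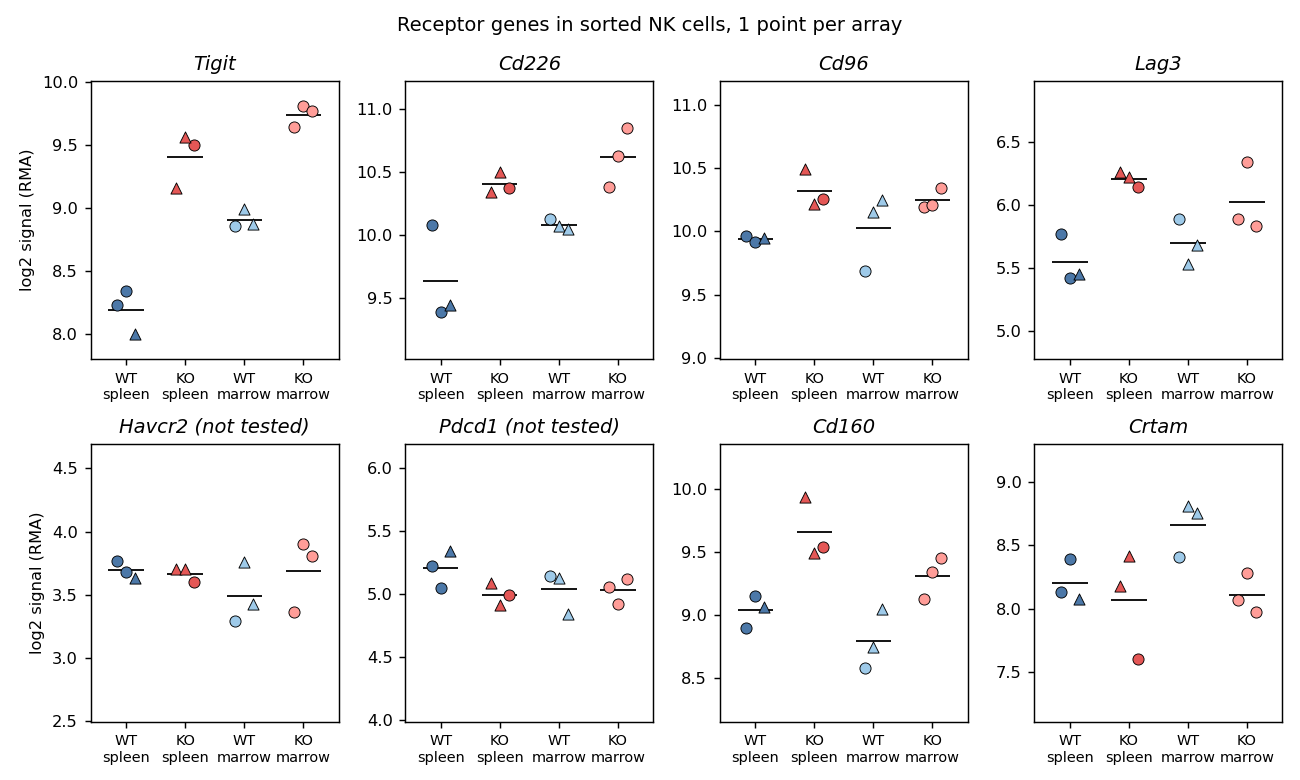
Log2 signal (vertical axis, RMA values) of the 8 receptor genes in the 4 groups, 1 point per array, with circles for the first and triangles for the second run of array numbers and a line at the group mean. Every panel spans the same height, and Tigit shows 4 groups that do not overlap, from 8.0 to 8.34 in wild type spleen up to 9.64 to 9.81 in knockout bone marrow.

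Tigit, the inhibitory receptor for CD155, had the largest difference of the 6. Its log2 signal was 8.23, 8.34 and 8.0 in wild type spleen and 9.16, 9.56 and 9.50 in knockout spleen. In bone marrow it was 8.86, 8.99 and 8.87 in wild type and 9.64, 9.81 and 9.77 in knockout. Every knockout array thus lay above every wild type array, also across tissues. Tigit rose by 1.26 ± 0.13 in spleen, a 2.39-fold difference (limma, Benjamini-Hochberg adjusted p = 8.92e-05, n = 3 arrays per group). In bone marrow it rose by 0.76 ± 0.14, or 1.69-fold (limma, adjusted p = 0.00686). Over both tissues the rise was 1.01 ± 0.089 (limma, adjusted p = 1.1e-05). Within the runs of array numbers the spleen difference was 1.22 and 1.36, and the bone marrow difference was 0.88 in the first run, the second holding no knockout bone marrow array. That 0.88 sets 3 knockout arrays against 1 wild type array, wild type bone marrow 1, so genotype and run nearly coincide in bone marrow. Without wild type bone marrow 1 the bone marrow call was lost, where the difference was 0.60 with an adjusted p of 0.126, in a range of 0.000726 to 0.126 over all alternatives.

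The 4 groups of Tigit were ordered as wild type spleen (mean 8.19), wild type bone marrow (8.91), knockout spleen (9.41) and knockout bone marrow (9.74), and no neighbours overlapped. Wild type cells of the bone marrow had more Tigit signal than those of the spleen, by 0.76 ± 0.13 (limma, adjusted p = 0.00787), and Tigit was the 1 receptor called in that comparison, against 5.37% of all genes (4.34% higher, 1.04% lower). In the same comparison 7 of 8 tested granulocyte markers were higher in bone marrow, among them S100a8 by 3.72 ± 0.37, and so were 4 of 9 T cell markers, Cd3d by 1.88 ± 0.23, Cd3e by 1.46 ± 0.22, Cd3g by 1.95 ± 0.22 and Thy1 by 0.80, and the part of these cells in the tissue difference of Tigit was not tested. Of 8 NK cell markers 2 were lower in wild type bone marrow, Gzma and Prf1, and 3 of 12 ILC1 markers were higher (Inpp4b, Tmem176a and Cd69). Arrays of these 2 wild type groups were separated for 2 of the 6 receptors, Tigit and Crtam, both higher in bone marrow. Of all tested genes 31.6% were separated in either direction and 16.4% with bone marrow higher. In knockout cells the step from spleen to bone marrow was 0.26 ± 0.14 and did not pass (limma, adjusted p = 0.633). None of the 6 receptors was called between knockout tissues, against 0.318% of all genes in limma. None had an unadjusted p under 0.05, against 1106 of 11963 genes. The genotype effect in bone marrow minus that in spleen was -0.50 ± 0.20 for Tigit, with an unadjusted p of 0.0316 and an adjusted p of 0.497 in limma, so a difference between tissues was not established. The tissue difference in wild type was lost without wild type spleen 3 (0.65, limma adjusted p = 0.0831, the highest of 0.00323 to 0.0831 over the alternatives).

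Cd226 encodes DNAM-1, the activating counterpart of TIGIT. Its log2 signal was 10.08, 9.39 and 9.45 in wild type spleen against 10.34, 10.50 and 10.37 in knockout spleen. Wild type spleen 1 stood above the other arrays of its group and still below all knockout arrays. The spleen difference was 0.80 ± 0.18, or 1.74-fold (limma, adjusted p = 0.0152). It dropped out of the calls without wild type spleen 3, at 0.67 with an adjusted p of 0.139 (the highest over the alternatives, from 0.00206). Wild type bone marrow arrays read 10.13, 10.07 and 10.05, and knockout bone marrow arrays 10.38, 10.63 and 10.85, again without overlap. That difference, 0.47 ± 0.20, did not pass (limma, adjusted p = 0.173), and its 95% interval ran from 0.04 to 0.90. Over both tissues Cd226 rose by 0.63 ± 0.12 (limma, adjusted p = 0.00355).

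Cd96, which is also known as TACTILE, moved less. Its signal was 9.96, 9.92 and 9.95 in wild type spleen, an SD of 0.0221, and 10.49, 10.22 and 10.26 in knockout spleen. In bone marrow it was 9.69, 10.15 and 10.25 in wild type and 10.19, 10.21 and 10.34 in knockout, where wild type array 3 lay within the range of the knockout arrays and the other wild type arrays below it. Neither tissue passed alone, at 0.31 ± 0.13 and 0.35 ± 0.14 (limma, adjusted p = 0.171 and 0.155). Over both tissues Cd96 rose by 0.33 ± 0.088, or 1.26-fold (limma, adjusted p = 0.0207). Leaving out wild type bone marrow 1 ended the call (0.23, limma adjusted p = 0.106) as did leaving out knockout spleen 1 (0.30, adjusted p = 0.0559), in a range of 0.00847 to 0.106 over the alternatives. For Cd96 neighbours in the order of the 4 groups all overlapped, while for Cd226 wild type bone marrow and knockout spleen were separated.

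Crtam, which T and NK cells induce on activation, was the 1 receptor of the 6 with lower estimates in knockout, and it was not called. Spleen arrays read 8.13, 8.39 and 8.08 in wild type and 8.18, 8.42 and 7.60 in knockout, the lowest being knockout spleen 3. Bone marrow arrays read 8.41, 8.81 and 8.76 in wild type and 8.07, 8.28 and 7.97 in knockout, with no overlap. The differences were -0.23 ± 0.17 and -0.36 ± 0.19 (limma, adjusted p = 0.502 and 0.283), and over both tissues -0.29 ± 0.12 (limma, adjusted p = 0.115). Without knockout spleen 3 the spleen value was 0.04. Over both tissues Crtam was called lower without wild type spleen 3 (-0.37, limma adjusted p = 0.0216), the lowest of 0.0216 to 0.302 over its alternatives.

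**Figure D2:**
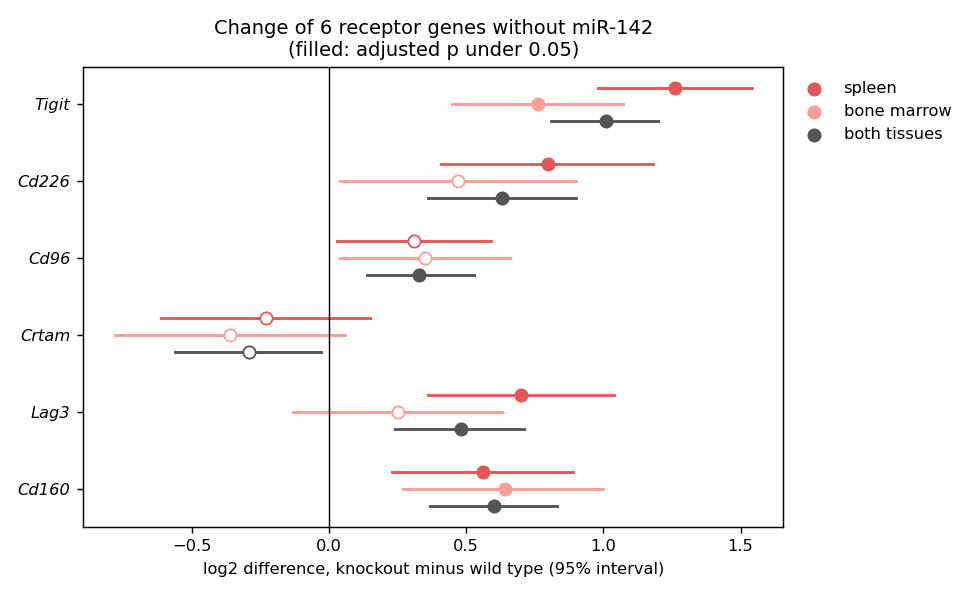
Log2 difference of knockout minus wild type (horizontal axis) with its 95% interval for the 6 tested receptors for each tissue and for both together, from limma with 3 arrays per group. Filled points passed at an adjusted p under 0.05, and Tigit lies farthest to the right in spleen at 1.26, while the Crtam estimates lie left of 0.

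Because TIGIT, CD226 and CD96 compete for one ligand, the changes of their transcripts were set against each other. Protein was not measured. The size of a log2 change can also depend on how a probe set responds, which was not corrected for. The test took the difference of 2 log2 signals within each array and permuted genotype within tissue in an exact two-sided test of 400 arrangements, with a smallest possible p of 0.005. It was added with the data seen and has no term for the run of array numbers. The values of 6 receptor pairs, Crtam included, were adjusted together. Tigit rose by 0.38 more than Cd226 over both tissues (exact permutation p = 0.02, adjusted p = 0.024), by 0.46 in spleen and 0.30 in bone marrow. The within-array difference ran from -1.86 to -1.05 in wild type spleen and from -1.18 to -0.87 in knockout spleen, so these groups overlapped. Without knockout spleen 2 or 3 the adjusted p was 0.054. Tigit rose by 0.73 more than Cd96 (exact permutation p = 0.005, adjusted p = 0.01), and there the genotypes did not overlap in either tissue. Cd226 and Cd96 differed by 0.35, which did not pass (exact permutation p = 0.065, adjusted p = 0.065). Crtam moved apart from the other members of the family, by 1.37 from Tigit and 0.99 from Cd226 (exact permutation p = 0.005 and adjusted p = 0.01 for both) and by 0.64 from Cd96 (exact permutation p = 0.015, adjusted p = 0.0225). With the run in the fit and genotype permuted within tissue and run, 36 arrangements remained, with a smallest possible p of 0.0278. In bone marrow only the place of the 1 wild type array of the first run could change. The pairs that passed all stood at that smallest p. Tigit then differed from Cd226 by 0.38 and from Cd96 by 0.68, the latter by 0.94 in spleen and 0.41 in bone marrow in place of 0.84 and 0.62 (exact permutation, adjusted p = 0.0417 for both pairs). The pairs of Crtam with Tigit and Cd226 also passed (adjusted p = 0.0417 in the same exact test), whereas Cd96 and Crtam, at 0.63, did not (exact permutation p = 0.0556, adjusted p = 0.0667).

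**Figure D3:**
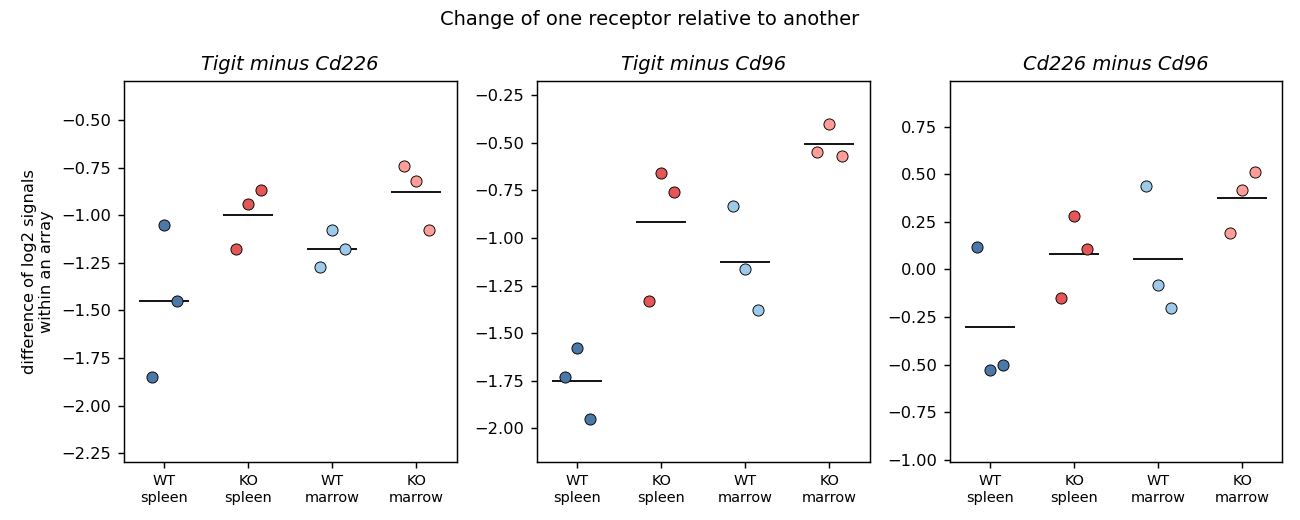
Difference between the log2 signals of 2 receptors within each array (vertical axis), by group, with a line at the group mean. Only shifts between groups can be read, since probe sets differ in response, and the size of a shift can depend on that response too. The Tigit minus Cd96 value is higher in all knockout than in all wild type arrays of the same tissue.

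Among the remaining receptors, Lag3 encodes an inhibitory receptor for MHC class II. Its signal was near the filter, at 5.77, 5.42 and 5.45 in wild type spleen and 6.26, 6.22 and 6.14 in knockout spleen. In bone marrow the arrays read 5.89, 5.53 and 5.68 in wild type and 5.89, 6.34 and 5.83 in knockout, and the groups overlapped. Lag3 rose in spleen by 0.70 ± 0.16, or 1.63-fold (limma, adjusted p = 0.015). The call was lost without wild type spleen 2 (0.63, limma adjusted p = 0.0528) or wild type spleen 3 (0.68, adjusted p = 0.0997), and the adjusted p ranged from 0.00687 to 0.0997 over the alternatives. In bone marrow the difference was 0.25 ± 0.17 and did not pass (limma, adjusted p = 0.409). The difference between the tissues, -0.45 ± 0.25, was not called either (limma, adjusted p = 0.605). Over both tissues Lag3 rose by 0.48 ± 0.11 (limma, adjusted p = 0.00905).

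CD160 is anchored in the membrane by a lipid and promotes interferon gamma production in mouse NK cells. Cd160 read 8.90, 9.15 and 9.06 in wild type spleen and 9.93, 9.49 and 9.54 in knockout spleen. Bone marrow arrays read 8.58, 8.75 and 9.05 in wild type and 9.13, 9.34 and 9.45 in knockout. Knockout arrays lay above wild type arrays within each tissue. The rise was 0.56 ± 0.15 for spleen and 0.64 ± 0.17 for bone marrow (limma, adjusted p = 0.0393 and 0.0385), and by 0.60 ± 0.10, or 1.51-fold, over both (limma, adjusted p = 0.00179). The single-tissue calls were close to the threshold. They were lost in 8 of 22 alternatives in spleen (adjusted p from 0.0192 to 0.241) and 9 of 22 in bone marrow (0.0186 to 0.292), while over both tissues all 21 alternatives kept the call. Within a genotype its bone marrow means lay below its spleen means, at -0.30 ± 0.15 in wild type and -0.23 ± 0.17 in knockout, and neither passed (limma, adjusted p = 0.256 and 0.737).

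Havcr2 and Pdcd1, which mark exhausted T cells, stayed below the filter in the mean and in every array. Havcr2 ranged from 3.29 to 3.90 over the 12 arrays, at or below the 9.12th percentile of genes in each. Pdcd1 ranged from 4.84 to 5.34, between the 25.6th and 35.7th percentiles. All 4 groups overlapped with their neighbours for both genes. With every gene tested, Pdcd1 stood at -0.21 ± 0.12 in spleen and 0.01 ± 0.14 in bone marrow, and Havcr2 at -0.07 ± 0.15 and 0.26 ± 0.17 (limma, adjusted p at least 0.445). A change of these genes was not detectable at this signal.

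Counted by array ranges, 5 of the 6 tested receptors were fully separated between genotypes in spleen, all higher in knockout, where 28.0% of all genes were separated in either direction and 14.0% with knockout higher. In bone marrow 3 were separated with knockout higher (Tigit, Cd226 and Cd160) and 1 with knockout lower (Crtam), against 34.2% of all genes and 16.4% with knockout higher. By group means, Cd226 ran from wild type spleen (9.64) over wild type bone marrow (10.08) and knockout spleen (10.40) to knockout bone marrow (10.62). Lag3 ran from wild type spleen (5.54) over wild type bone marrow (5.70) and knockout bone marrow (6.02) to knockout spleen (6.21), with every pair of neighbours overlapping. Cd160 was lowest in wild type bone marrow (8.79), followed by wild type spleen (9.04), knockout bone marrow (9.31) and knockout spleen (9.65), and only the last step was free of overlap. Crtam ran from knockout spleen (8.07) over knockout bone marrow (8.11) and wild type spleen (8.20) to wild type bone marrow (8.66), again with only the last step free of overlap. In bulk RNA of this kind, fewer cells with a transcript and less transcript per cell cannot be told apart. None of the 6 genotype effects was called as different between the tissues (limma, 1 of 11963 genes called, Slamf6, or 0.00836%). Tigit had the 1 unadjusted p under 0.05 in limma, where 1092 of the 11963 genes had one.

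RefSeq promoter windows, 250 bases before to 50 bases after a start site in GRCm38.p6, were found for 5 of the 8 genes, with 6 windows in all. None was found for Cd226, Lag3 and Crtam, of which Cd226 and Lag3 were also called higher over both tissues. The windows of the called genes Tigit, Cd96 and Cd160 are shown, since these genes rose over both tissues. All lie on the minus strand and are written 5′ to 3′ along the gene, at chr16:43664135-43664434 (Tigit), chr16:46120199-46120498 (Cd96), and chr3:96829302-96829601 and chr3:96814472-96814771 (starts A and B of Cd160). Capitals mark the core letters of the Runx motif, TGTGGT or ACCACA on the other strand.
Tigit: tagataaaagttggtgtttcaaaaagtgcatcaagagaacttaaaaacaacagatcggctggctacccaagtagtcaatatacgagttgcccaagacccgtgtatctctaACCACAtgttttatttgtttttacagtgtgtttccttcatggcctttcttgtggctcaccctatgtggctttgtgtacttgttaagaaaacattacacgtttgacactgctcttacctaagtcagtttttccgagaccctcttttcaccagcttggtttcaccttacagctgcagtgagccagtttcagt
Cd96: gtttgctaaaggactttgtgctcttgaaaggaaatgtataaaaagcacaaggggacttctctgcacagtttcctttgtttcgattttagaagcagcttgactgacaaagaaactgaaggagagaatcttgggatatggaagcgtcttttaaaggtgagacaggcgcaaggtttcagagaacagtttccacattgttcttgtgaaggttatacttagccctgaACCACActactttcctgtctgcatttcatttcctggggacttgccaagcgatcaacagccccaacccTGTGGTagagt
Cd160 start A: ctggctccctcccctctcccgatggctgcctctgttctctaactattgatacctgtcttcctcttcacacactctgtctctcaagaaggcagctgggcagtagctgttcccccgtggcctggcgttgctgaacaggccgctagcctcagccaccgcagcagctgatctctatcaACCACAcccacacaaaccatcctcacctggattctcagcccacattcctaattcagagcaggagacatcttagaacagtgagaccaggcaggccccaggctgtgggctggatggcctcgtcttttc
Cd160 start B: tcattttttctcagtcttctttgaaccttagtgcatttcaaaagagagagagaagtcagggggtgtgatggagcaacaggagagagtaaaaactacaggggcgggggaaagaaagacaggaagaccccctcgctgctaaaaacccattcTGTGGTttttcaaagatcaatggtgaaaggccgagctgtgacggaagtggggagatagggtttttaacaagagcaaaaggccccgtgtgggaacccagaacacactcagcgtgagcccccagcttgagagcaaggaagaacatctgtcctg
Runx factors are transcription factors of NK and T cells. Their core letters begin 140 bases before the start of Tigit, 28 bases before that of Cd96 and again within its transcript, and 76 and 101 bases before the starts of Cd160. They were present in 5 of the 6 windows, or 4 of the 5 genes, since Cd160 has 2 windows. The window of Havcr2, which was below the filter, held them, and that of Pdcd1 did not. Of 32851 windows of all genes 16.8% held them. Letters of the T-box core (GTGTGA) were in 2 of the 6 windows and 14.5% of all, those of ETS (GGAAGT) in 2 and 23.8%, and those of NFAT (GGAAAA) in 1 and 23.4%, on either strand, and none overlapped the Runx letters. These matches describe letters only. Runx3 itself differed by 0.32 ± 0.13 in spleen and 0.14 ± 0.15 in bone marrow and did not pass (limma, adjusted p = 0.174 and 0.601).

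The ligands of the receptors were read from the same cells. Of 14 measured ligand genes 9 were tested. In each tissue 1 of these rose, Lgals3, and none fell, with medians of 0.068 in spleen and 0.091 in bone marrow. The list held no MHC class II gene, although LAG3 binds their products. H2-Aa, H2-Ab1 and H2-Eb1 rose in spleen by 2.00, 1.66 and 0.80 (limma, adjusted p = 0.00247, 0.000268 and 0.0211) and did not pass in bone marrow. Lgals3 encodes galectin-3, a reported ligand of LAG3, and was higher by 2.54 ± 0.13 in knockout spleen and 2.14 ± 0.15 in knockout bone marrow (limma, adjusted p = 5.89e-07 and 6.52e-06). Cd274, the gene of PD-L1, fell over both tissues by 0.42 ± 0.12 (limma, adjusted p = 0.03), a call lost in 7 alternatives. Pvr, the gene of CD155, stood at -0.15 ± 0.18 and 0.09 ± 0.20 and did not pass, nor did Tnfrsf14 or the galectin-9 gene Lgals9. Nectin1, Nectin2, Nectin3, Ceacam1 and Fgl1 lay below the filter.

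Proteins that work with these receptors inside the cell had 3 of 16 genes higher and 3 lower in spleen, and 1 higher and 3 lower in bone marrow. The medians were -0.101 and -0.155. Ptpn6, the gene of the phosphatase SHP-1 that inhibitory tails recruit, rose by 1.19 ± 0.12 and 0.88 ± 0.13 (limma, adjusted p = 8.44e-05 and 0.00184). Fyn, a kinase downstream of CD226, fell by 0.46 ± 0.09 and 0.88 ± 0.10 (limma, adjusted p = 0.00729 and 0.000227). Itgb2, the beta chain of the integrin LFA-1 with which CD226 associates, fell by 0.56 ± 0.10 and 0.51 ± 0.11, while its alpha chain gene Itgal stood at -0.22 ± 0.092 and -0.13 ± 0.10 and did not pass. The kinase gene Prkcq fell by 0.41 ± 0.11 and 0.62 ± 0.12, its spleen call being lost in 11 of 22 alternatives. Prkch and Plcg2 were the other genes higher in spleen, by 0.47 and 0.30. The SHIP-1 gene Inpp5d and Grb2, both reported partners of the TIGIT tail, did not pass in either tissue alone (limma, adjusted p at least 0.0591). Over both tissues they fell by 0.44 ± 0.092 and 0.28 ± 0.088 (limma, adjusted p = 0.00569 and 0.0418).

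Of 18 tested transcription factors tied to checkpoint receptor expression, 1 rose and 2 fell in spleen, and 1 rose and 4 fell in bone marrow. Tox, a factor of innate lymphoid development and of T cell exhaustion, rose by 0.76 ± 0.16 and 0.72 ± 0.18 (limma, adjusted p = 0.0112 and 0.0284). Nfatc2 fell by 0.48 ± 0.11 and 0.85 ± 0.13, and Nfil3, which NK cell development requires, fell by 0.75 ± 0.16 and 1.00 ± 0.18. Batf stood at -0.18 ± 0.12 in spleen and fell by 0.72 ± 0.13 in bone marrow (limma, adjusted p = 0.438 and 0.00652). Nr4a1 was the other gene lower in bone marrow, at -1.89 ± 0.44 (limma, adjusted p = 0.0207). Over both tissues 4 of the 18 rose and 6 fell. Beside Tox, the genes that rose were Ikzf2 by 0.70 ± 0.13, Id2 by 0.44 ± 0.085 and Maf by 0.36 ± 0.11 (limma, adjusted p = 0.00303, 0.00333 and 0.045). The medians of the list were -0.040 in spleen and -0.21 in bone marrow.

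Genes listed as inhibitory receptors outside the 8 were divided, with 3 of 10 higher and none lower in spleen, and 3 higher and 2 lower in bone marrow. The 3 higher genes include Entpd1, whose product is an enzyme rather than a receptor. The prostaglandin E2 receptor gene Ptger4 rose by 1.30 ± 0.12 and 1.00 ± 0.13, the cadherin receptor gene Klrg1 by 1.13 ± 0.25 and 1.38 ± 0.27, and Entpd1, which encodes the ectonucleotidase CD39, by 1.09 ± 0.25 and 1.41 ± 0.28. Lair1, a collagen receptor gene, stood at 0.00 ± 0.11 in spleen and fell by 1.1 ± 0.12 in bone marrow, and the difference between the tissues was not called (limma, adjusted p = 0.0748). Vsir, the gene of VISTA, was the other gene lower in bone marrow, at -0.68. The medians were -0.00296 and 0.0735. Ctla4 and Btla lay below the filter. Among 7 tested costimulatory receptors Tnfrsf9 (4-1BB) rose by 1.91 ± 0.17 and 1.81 ± 0.19. Cd28 fell by 0.92 ± 0.14 and 1.28 ± 0.16, Cd2 by 0.98 ± 0.13 and 0.83 ± 0.15, and Icos fell in spleen by 0.57 ± 0.13. The medians were -0.212 and -0.252.

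**Figure D4:**
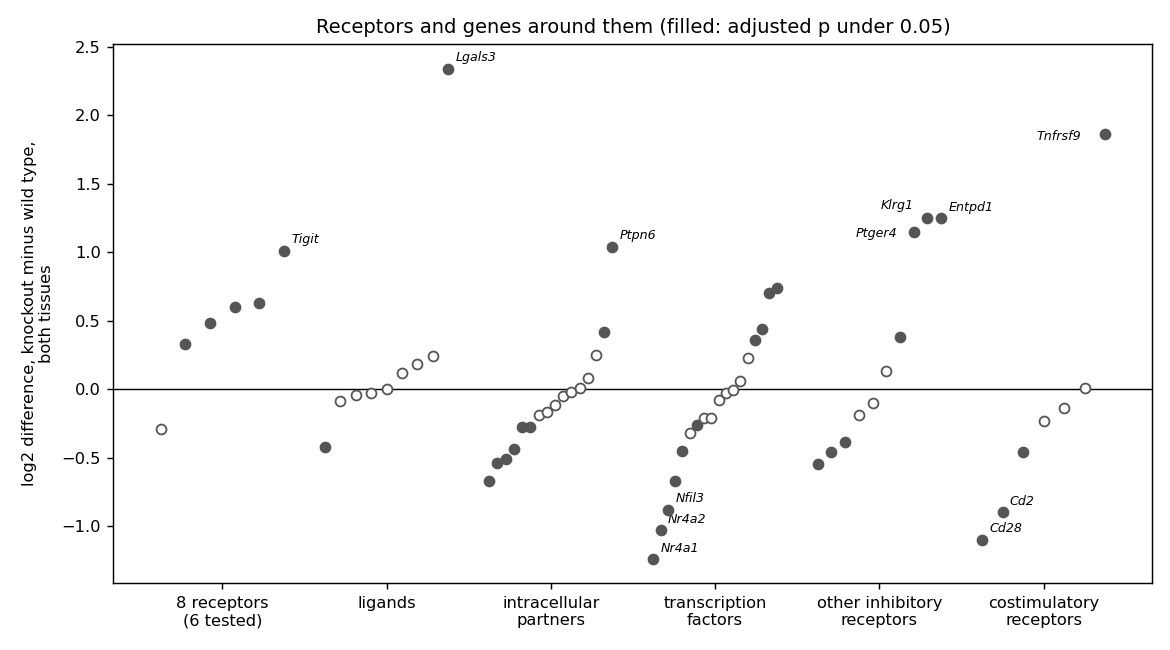
Log2 difference of knockout minus wild type over both tissues (vertical axis) for the tested receptors and for 5 lists of genes around them, 1 point per gene, with filled points at a limma adjusted p under 0.05. The receptors lie between -0.29 and 1.01, and the lists hold both rises and falls, from -1.24 (Nr4a1) to 2.34 (Lgals3).

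Genes listed as markers of other cells moved with genotype too, beside the tissue differences given with Tigit. The sums below add unlogged signals, so the marker with the highest signal weighs most. Of 12 tested markers of ILC1 and tissue residency 8 rose in spleen and 9 in bone marrow, and none fell in either tissue alone. Over both tissues 9 rose and 1 fell, the interleukin-7 receptor gene Il7r, by 0.78 ± 0.23 (limma, adjusted p = 0.0357), with -0.50 in spleen and -1.06 in bone marrow. The medians of the 12 were 2.12 in spleen and 2.23 in bone marrow. Itga1 rose by 3.38 ± 0.22 and 3.49 ± 0.24, and Inpp4b by 3.91 ± 0.19 and 2.90 ± 0.21. The summed signal of the list, in log2, was 12.43 to 12.57 in wild type and 13.26 to 13.31 in knockout spleen, and 12.68 to 12.90 and 13.43 to 13.71 in bone marrow. Xcl1 weighs most in these sums, with a mean of 12.14, and stood at 0.15 in each tissue without passing. Of 7 tested dendritic cell markers 6 rose in spleen and 2 in bone marrow, with sums of 10.99 to 11.16 and 12.20 to 12.37 in spleen and of 10.74 to 11.01 and 11.89 to 12.03 in bone marrow. Itgax weighs most in these sums, with a mean of 10.93, and rose by 1.36 ± 0.11 and 1.46 ± 0.12. The list includes the MHC class II genes H2-Aa (2.00 ± 0.33 in spleen, 0.59 ± 0.36 in bone marrow) and H2-Ab1 (1.66 ± 0.20 and 0.59 ± 0.22), whose products LAG3 binds. The defining genes Flt3, Siglech, Xcr1 and Clec9a were below the filter. Of 9 tested T cell markers Thy1 rose and Cd3d and Cd28 fell in spleen, 1 higher and 2 lower, and 4 fell in bone marrow (Cd3d, Cd3e, Cd3g and Cd28), where sums were 12.60 to 12.76 in wild type and 12.38 to 12.61 in knockout. In spleen those sums were 11.95 to 12.01 and 12.05 to 12.28, and Cd4 and Cd8b1 were below the filter. Thy1, with a mean of 11.65, weighs most in the T cell sums.

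Of 8 tested granulocyte markers S100a8 alone rose in spleen and 4 fell in bone marrow (S100a8, Lcn2, Retnlg and Camp), and their sums were 9.21 to 10.18 and 9.91 to 11.04 in spleen and 12.17 to 12.43 and 10.64 to 11.62 in bone marrow. For monocytes 1 of 2 tested markers fell in spleen, Ccr2, and the sums were 10.96 to 11.15 and 9.82 to 10.12 in spleen and 11.34 to 11.69 and 10.98 to 11.19 in bone marrow. Ccr2 weighs most in these sums, with a mean of 10.73 and differences of -1.33 ± 0.12 in spleen and -0.15 ± 0.14 in bone marrow. Csf1r, Cd14 and Adgre1 were below the filter. None of 3 tested B cell markers passed in either tissue in limma, with sums of 7.86 to 7.95 and 7.86 to 8.15 in spleen and 7.47 to 7.99 and 7.62 to 7.83 in bone marrow. NK cell marker sums were 14.53 to 14.63 and 14.57 to 14.71 in spleen and 14.22 to 14.44 and 14.36 to 14.50 in bone marrow. The part of these cells in the receptor results was not tested.

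For each called receptor the 3 most similar profiles were taken among 11199 genes, by the root mean square difference over the 12 arrays between deviations from each gene's own mean. Tigit was closest to Tex2 (0.155), the 14-3-3 epsilon gene Ywhae (0.176) and the Ras pathway inhibitor gene Spred1 (0.178). The median over all candidates was 0.628, near the root mean square of Tigit's own deviations, 0.598. Tex2 differed between genotypes by 1.40 in spleen and 0.75 in bone marrow, close to the Tigit values. Cd226 was closest to the cardiolipin synthase gene Crls1 (0.122), Mcur1 and Smyd3. Cd96 was closest to Apobec3 (0.0985), Adal and Oxld1, Lag3 to Igflr1 (0.101), Gbp3 and Heatr5a, and Cd160 to the ceramide synthase gene Cers6 (0.0848), Fam214a and Daam1. No receptor was among the 3 closest profiles of another, and the profiles share the same 12 arrays and their groups. With 3 places among 11199 genes and a measure that depends on the size of a change, this cannot show whether the receptors vary together.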

How the data were processed

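NK cell RNA was profiled on 12 Affymetrix arrays in 4 groups of 3. The authors deposited a log2 signal for each probe set, made with Affymetrix Expression Console and RMA, per the submitters' processing notes, with versions not given in the sources used here. Precision is limited by the number of arrays.

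The table held 35556 probe sets, of which the platform annotation gave 1 symbol for 21789, several for 1621 and none here for 12146. Symbols were checked by gene identifier in RefSeq (GRCm38.p6), where 21698 were found and 0 changed. The probe set with the highest mean was kept per gene, and genes above the 40th percentile of means were tested. limma 3.58.1 in R 4.3.3 fitted 4 group means and the run of array numbers, with 7 residual and 4.74 prior degrees of freedom. The p-values are two-sided, errors of differences are standard errors, and they measure the spread between arrays.

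The receptors, gene lists and promoter motifs were chosen with earlier results of these data known. Named list genes are the 4 with the smallest p per list in the knockout comparisons, and others were named after their values were seen. A difference between receptor pairs was tested by exact permutation, a test added after seeing the data. The fits were tested on simulated data. Alternatives were another scaling, filter, probe set rule, variance model or covariate, a replicate block, and leaving out arrays.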

Additional observations from a re-analysis of the deposited data

How the results depend on the processing

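Among the genotype differences of the 6 tested receptors, within and over tissues, Crtam in spleen was the only one to change sign under any alternative run. The calls of Tigit in spleen and of Tigit, Cd226, Lag3 and Cd160 over both tissues passed under all of them. With only the bone marrow groups fitted and no run term, Cd226 was called higher there at 0.54 (limma, adjusted p = 0.0397) and Crtam lower at -0.56 (adjusted p = 0.0453). Without the run term and with all groups kept the values were the same and neither passed in limma. With 1 array left out, genes called between genotypes numbered 546 to 1083 in spleen (1090 with all arrays) and 371 to 1006 in bone marrow (1035), and receptors called numbered 1 to 4 and 0 to 2. Genes with an effect differing between tissues numbered 0 to 5 (1), genes differing between wild type tissues 82 to 702 (643) with 0 to 2 receptors, and genes differing between knockout tissues 1 to 38 (38). Without the run term the counts were 1590 genes in bone marrow, 2 for the difference between tissues and 87 between knockout tissues. With no filter 1 receptor was called in bone marrow, and with the filter at the 60th percentile, where Lag3 was not tested, 0 genes were called for the difference between tissues in limma. Centring arrays on their median gave 5 genes for that difference and 977 between wild type tissues, split 901 higher and 76 lower against 519 and 124 as reported. Array weights gave 2 and 1135, and an intensity trend 5. Renewed quantile normalization turned the split in bone marrow to 539 higher and 380 lower, from 469 and 566, over both tissues to 1233 and 1013, from 1054 and 1236, and between wild type tissues to 420 and 179. The cause of these shifts was not tested. A replicate block, fitted because groups share replicate numbers, left 3 receptors in spleen (from 4) and 1 in bone marrow (from 2), Cd160 being lost in both (limma, adjusted p = 0.0547 and 0.0608), called Crtam lower over both tissues (6 receptors, from 5) and gave 5 genes for the difference between tissues. Same-numbered arrays of the genotypes correlated at -0.007 to 0.094 in spleen and -0.02 to 0.243 in bone marrow in their deviations, and 4 of 6 arrays in each tissue correlated best with their own number, so the numbers were not taken as a pairing.

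Values near 0 changed sign. With 1 array left out, Crtam in spleen ran from -0.55 to 0.037, and the difference between tissues ran from -0.27 to 0.23 for Cd96, -0.067 to 0.22 for Cd160 and -0.53 to 0.35 for Crtam. Between wild type tissues Cd96 ran from -0.11 to 0.23, and between knockout tissues Cd96 ran from -0.040 to 0.15 and Crtam from -0.10 to 0.40. Lair1 in spleen ran from -0.052 to 0.065. The difference between tissues was -0.025 for Cd96 after median centring, and -0.16 for Cd96 and -0.10 for Cd160 without the run term. Between wild type tissues Cd96 was -0.060 after quantile normalization and -0.023 with array weights. Without the run term, with all groups or only those compared, Cd96 between knockout tissues was -0.074 and Lair1 in spleen -0.068, and Lair1 was -0.0047 with the replicate block. With 1 array left out, the receptor pair Tigit and Cd226 ran from 0.28 to 0.48 with adjusted p from 0.01 to 0.054 in the exact permutation test, and Cd226 and Cd96 from 0.29 to 0.46 with adjusted p from 0.024 to 0.12. With the run term Cd96 and Crtam differed by 0.63 (adjusted p = 0.0667 in the exact permutation test). Calls of listed genes lost in several alternatives were Prkcq in spleen (11 of 22), Tox in bone marrow (6), Nfatc2 (4), Icos (3) and Nfil3 (2) in spleen, and Cd274 over both tissues (7 of 21). The spleen calls of Fyn, Tox, Klrg1 and Entpd1 and the bone marrow calls of Itgb2 and Prkcq were each lost in 1.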
